A study of Mus musculus with 16 samples.

Results

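The comparison described here was between the gastrocnemius muscle of tumor-free mice trained on a treadmill (E group) and of tumor-free mice that were not trained (C group). Its members were the 8 libraries that the labels place in these groups, 4 per group and 1 per mouse, of 16 libraries in the series. All mice were wild-type male BALB/c mice, 8 weeks old when bought. The E mice ran at 14 m/min for 60 min a day on 6 days a week for 4 weeks, whereas the C mice were placed on a stationary treadmill each day. Both groups had been anaesthetized with pentobarbital and injected with saline at the site where the other mice of the series received CT26 colon carcinoma cells. Of 12 mice per group, 4 were sequenced, and the hour of tissue collection and the interval since the last run are not given in the sources used here. The other 8 libraries came from CT26-bearing mice without training (T group, n = 4) or with the same training (TE group, n = 4).

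Skeletal muscle consists of contractile fibers held together by a collagen-rich matrix, which fibroblasts lay down and which passes into tendon at the fiber ends. Muscle also has a circadian clock, in which BMAL1 (the product of Arntl) pairs with CLOCK or NPAS2 to drive the Per and Cry genes, whose products feed back on the pair, while Dbp, Tef and Hlf encode output factors that bind D-box sequences. Endurance training is known as a stimulus for mitochondrial biogenesis, through the coactivator PGC-1α (Ppargc1a), and for growth of the matrix.

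Library totals ranged from 35628211 to 36779110 counts in the C group and from 36149281 to 37635741 in the E group, and 14749 of 35415 genes passed the filter on low counts. Levels are given as normalized CPM (counts divided by TMM-adjusted library totals), and 3 counts in 1 library correspond to at most 0.0875 CPM. The contractile markers of skeletal muscle were abundant in both groups, with a mean FPKM (counts scaled by gene length and library total) of 5281 in the C group and 5020 in the E group for Myh4, the fast type IIB myosin heavy chain, and of 31.9 and 32.1 for Myh7, the slow one. Some libraries stood apart in markers of other tissues. The summed level of lymphocyte and lymph node markers was 105 CPM in C replicate 3 and 76.8 CPM in E replicate 1, against 15.2 to 47.1 CPM in the other 6 libraries. Adipocyte markers had their highest summed level in E replicates 2 and 3 (2460 and 2319 CPM, against 1467 to 2003 CPM in the other 6). Results were therefore also computed without these pairs of libraries.

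Training was associated with 13 genes of higher level and 0 genes of lower level at an adjusted p under 0.05 (edgeR quasi-likelihood test on the 16 libraries with Benjamini-Hochberg adjustment), which were 0.0881% and 0% of the genes tested. Of these, 7 had a fold change above 2 and counted as differentially expressed genes (DEGs, 0.0475%). An unadjusted p under 0.05 was found for 1255 genes higher in E (8.51%) and 837 lower in E (5.67%), and the median log2 fold change of all genes was 0.0033. All 4 E values lay above all 4 C values in 746 genes (5.06%) and below them in 593 (4.02%). The 13 genes fell mainly into connective tissue genes (Fmod, Chad, Tnmd, Col5a3 and Serpinf1) and clock genes (Arntl and Clock), besides C7, Fst, Prkcd, Pde3a, Sdc1 and Sash1.

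The number of calls depended on the fit. Calls by edgeR on the 16 libraries refer below to the fit with TMM factors and the filter on low counts. With DESeq2 size factors, without the filter or with a robust fit in its place, edgeR called 2, 7 and 2 genes lower, and the robust fit did not call Fmod or Arntl. With the C and E libraries fitted alone, 153 of 14198 genes were called higher (1.08%) and 30 lower (0.211%), and DESeq2 on the 16 libraries called 199 higher (1.46%) and 52 lower (0.383%). The 13 genes were among the calls of both fits, and 125 of the 183 genes called from the C and E libraries alone were also called by DESeq2. The biological coefficient of variation between mice was 14.6% in C and 15% in E, compared with 19.8% in T and 19.4% in TE, and its part in the difference between fits was not tested. Leaving out 1 mouse moved the edgeR count to 0 without C replicate 1, C replicate 3 or E replicate 4, with 1512, 2284 and 1772 genes at an unadjusted p under 0.05, to 2 without C replicate 4 or E replicate 2, to 6 without C replicate 2 and to 35 without E replicate 1. All 13 genes stayed higher in E with an unadjusted p of at most 0.000233 in each of these 7 fits.

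**Figure D1:**
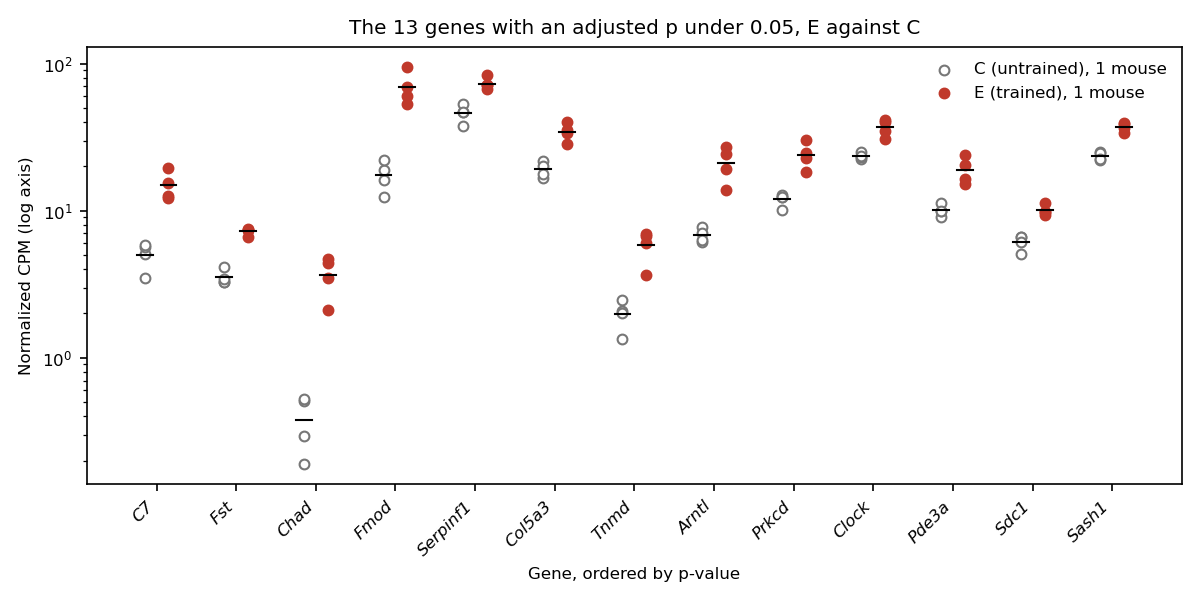
Normalized CPM (log axis) of the 13 genes with an adjusted p under 0.05, ordered by p-value, with 1 point per mouse (open, C group; filled, E group; n = 4 each) and lines at the group means. In each of the 13 genes the 4 E mice lie above the 4 C mice, and Chad shows the widest distance, with C values of 0.189 to 0.522 and E values of 2.13 to 4.67.

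Fmod encodes fibromodulin, a small leucine-rich proteoglycan (SLRP) of tendon that binds collagen fibrils. Its level was 12.4, 16.2, 19.1 and 22.2 CPM in the C mice and 52.8, 95.1, 69.9 and 59.9 CPM in the E mice. The lowest E value was thus above the highest C value, and the fold change was 3.97 (log2 1.99 ± 0.31 SE, adjusted p = 0.0206 by edgeR). The gene lies at chromosome 1, 133964992 to 133976015 (plus strand, GRCm39). Chad (chondroadherin, a cartilage member of the same family on chromosome 11, 94455696 to 94459953) was at 0.292, 0.509, 0.189 and 0.522 CPM in C and 2.13, 4.39, 3.47 and 4.67 CPM in E. This was the largest change among the 13 genes (log2 3.26 ± 0.51 SE, adjusted p = 0.0206 by edgeR), and its C values rested on 7 to 19 counts per library.

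Tnmd encodes tenomodulin, a membrane glycoprotein that marks mature tendon cells, and lies on chromosome X, 132751720 to 132766326. It was at 1.34, 2.09, 2.02 and 2.47 CPM in the C mice and at 6.70, 6.98, 3.67 and 6.05 CPM in the E mice, a 2.94-fold rise (log2 1.56 ± 0.26 SE, adjusted p = 0.0274 by edgeR). E replicate 3 was the lowest of the E mice and still above every C mouse. Col5a3, which encodes the α3 chain of the fibril-regulating collagen V, rose from 19.1 ± 2.39 to 34.6 ± 4.89 CPM (mean ± SD, n = 4, adjusted p = 0.0274 by edgeR). Serpinf1 (pigment epithelium-derived factor, a secreted serpin without protease-inhibiting activity) was at 46.2 ± 6.28 CPM in C and rose to 73.2 ± 7.01 CPM in E (adjusted p = 0.0206 by edgeR).

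C7 encodes a terminal component of complement, which joins the membrane attack complex. It had the smallest adjusted p of all genes (0.0107 by edgeR) and is located at chromosome 15, 5017233 to 5093252, on the minus strand. Its level was 5.04, 5.63, 3.51 and 5.83 CPM in the C mice and 12.6, 19.5, 12.2 and 15.4 CPM in the E mice, a fold change of 2.99 (log2 1.58, 95% confidence interval 1.14 to 2.02). The E mice all lay above the highest C mouse. Fst encodes follistatin, a secreted protein that binds and neutralizes myostatin and activins, and lies at chromosome 13, 114588731 to 114595521, on the minus strand. It was at 3.29, 3.27, 3.43 and 4.12 CPM in C and 6.65, 7.53, 7.37 and 7.40 CPM in E. Both groups were narrow, and the fold change was 2.05 (log2 1.04 ± 0.15 SE, adjusted p = 0.0160 by edgeR).

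Of the remaining genes, Prkcd (protein kinase C delta) was at 10.1 to 12.9 CPM in the C mice and rose to 18.2 to 30.5 CPM in the E mice (adjusted p = 0.0280 by edgeR). Pde3a (a cyclic nucleotide phosphodiesterase) rose from 10.1 ± 0.92 to 19.0 ± 3.96 CPM (adjusted p = 0.0321 by edgeR). Sdc1 (syndecan 1, a heparan sulfate proteoglycan of the cell surface) rose 1.63-fold and Sash1 (a scaffold protein) 1.58-fold, each with an adjusted p of 0.0454 by edgeR. In the fit with TMM factors and the filter, edgeR called no gene lower. The smallest adjusted p among the lower genes was 0.0515 for Nudt7, a peroxisomal enzyme that cleaves coenzyme A, at 26.8 to 35.7 CPM in C and 20.5 to 23.4 CPM in E. It was followed by Acaa2 (mitochondrial 3-ketoacyl-CoA thiolase, log2 −0.37, adjusted p = 0.0516 by edgeR) and Per2. Tcap, which encodes the titin cap protein of the sarcomere, was at 2269 to 2916 CPM in C and 1629 to 1975 CPM in E, with an adjusted p of 0.0854 by edgeR. In all of these 4 genes the E values lay below the C values, and the fit of the C and E libraries alone called the 4 lower.

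The clock genes were examined as a list of 24, of which 23 were tested and Rorb was too low. Arntl and Clock, which encode the partners of the activating complex, were called higher by edgeR on the 16 libraries, which called none lower. DESeq2 and the fit of C and E alone each called Npas2 higher as well and Per2 lower. At an unadjusted p under 0.05, 4 were higher and 5 lower (17.4% and 21.7% of the list, against 8.51% and 5.67% of all genes), and 3 each did not overlap between groups in either direction (13% each, against 5.06% above and 4.02% below among all genes). The median log2 fold change of the list was −0.07, with 9 genes above 0 and 14 below. Since the hour of tissue collection and the interval since the last run are not known for either group, a difference in these cannot be told apart from training in the clock genes. The 300 bases around the RefSeq start sites (250 before and 50 after, matched letter for letter to GRCm39) are given for Arntl and Clock, because they were called, and for Per3, because it is a clock gene whose C and E values did not overlap and whose promoter holds a clock motif. They are written 5′ to 3′ on the gene's strand, with motif matches in capitals.
Arntl, chr7:112806422-112806721, plus strand: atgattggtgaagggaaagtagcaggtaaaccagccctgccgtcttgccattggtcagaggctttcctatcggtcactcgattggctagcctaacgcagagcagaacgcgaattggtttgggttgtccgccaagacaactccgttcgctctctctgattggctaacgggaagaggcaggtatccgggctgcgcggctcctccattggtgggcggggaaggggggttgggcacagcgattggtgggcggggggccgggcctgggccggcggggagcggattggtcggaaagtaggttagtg
Clock, chr5:76452590-76452889, minus strand: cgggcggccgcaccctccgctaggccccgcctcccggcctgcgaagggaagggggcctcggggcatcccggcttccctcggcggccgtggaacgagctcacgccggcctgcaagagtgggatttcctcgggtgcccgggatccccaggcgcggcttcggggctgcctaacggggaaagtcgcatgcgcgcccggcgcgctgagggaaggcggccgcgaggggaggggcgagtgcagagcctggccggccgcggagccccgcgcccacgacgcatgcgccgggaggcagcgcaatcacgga
Per3, chr4:151129073-151129372, minus strand: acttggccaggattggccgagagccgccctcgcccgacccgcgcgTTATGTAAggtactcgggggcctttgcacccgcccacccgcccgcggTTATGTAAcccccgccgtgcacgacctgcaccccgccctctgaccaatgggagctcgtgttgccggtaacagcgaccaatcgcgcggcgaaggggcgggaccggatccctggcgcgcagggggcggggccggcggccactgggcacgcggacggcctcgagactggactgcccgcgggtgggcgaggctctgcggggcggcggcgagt

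Both strands of these windows were searched for the E-box CACGTG, the D-box TTATGNAA and the ROR response element. Per3 held 2 D-boxes, both with the letters TTATGTAA, which begin at −205 and −158 relative to the start site, and no match was found in the windows of Arntl, Clock, Npas2 and Hlf. RefSeq lists 2 promoters for Arntl and 3 for Clock, and for these genes only the window printed above was searched. Other start sites, bases outside the windows and variants of the motif letters were not searched. Of 19 clock genes with a promoter in the table, 5 held the E-box in the searched window (Per1, Cry1, Tef, Bhlhe41 and Ciart, the last with 3 matches). The D-box was found in 3 (Per1, Per3 and Timeless) and the ROR element in 0. Of all 32851 promoters of this length, 7.15%, 3.38% and 2.46% held these motifs. The motifs do not overlap one another in the Per3 window, and a match describes letters only.

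Arntl lies at chromosome 7, 112806152 to 112914735 (Bmal1 in GENCODE). Its level was 7.70, 7.05, 6.13 and 6.29 CPM in the C mice and 19.1, 24.5, 13.8 and 27.0 CPM in the E mice. The C mice were close together and the E mice spread over a range that began well above them, with a 3.10-fold rise (log2 1.63, 95% confidence interval 1.05 to 2.22, adjusted p = 0.0280 by edgeR). Clock, at chromosome 5, 76342860 to 76452846, was at 25.3, 22.5, 23.1 and 23.5 CPM in C and 30.9, 40.1, 34.6 and 41.6 CPM in E. Its change was smaller (1.56-fold, log2 0.64 ± 0.11 SE, adjusted p = 0.0315 by edgeR) but again without overlap. Npas2, the paralog of Clock, had 3, 2, 5 and 3 counts in the C libraries and 19, 73, 15 and 47 in the E libraries. The E mice were all higher, the adjusted p was 0.0516 by edgeR, and the log2 fold change of 3.48 rested on very few C counts.

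Per2, Per3, Hlf and Dbp had lower mean levels in E. Per2, a period repressor and target of the activating complex, was at 24.4, 26.7, 26.3 and 27.2 CPM in C and 15.2, 15.3, 18.9 and 15.9 CPM in E. The groups did not overlap and the level in C was 1.60 times that in E, but the adjusted p was 0.0725 by edgeR on the 16 libraries (0.00649 in the fit of C and E alone). Per3 was at 34.3, 26.8, 35.9 and 32.2 CPM in C and 19.5, 11.2, 26.0 and 17.0 CPM in E (log2 −0.81 ± 0.25 SE, unadjusted p = 0.0053 by edgeR). Hlf was at 22.2 to 25.6 CPM in C and 13 to 21.6 CPM in E, without overlap (log2 −0.54 ± 0.16 SE). Dbp, an output factor with a strong daily rhythm, had 68.2, 107, 126 and 132 CPM in C and 47.0, 20.6, 105 and 32.4 CPM in E, so that E replicate 3 lay among the C mice. Its log2 fold change was −1.08 ± 0.51 SE with an adjusted p of 0.351 by edgeR.

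Nfil3, which represses D-box genes, was at 12.5 to 25.6 CPM in C and 18.1 to 57.7 CPM in E (log2 0.95, adjusted p = 0.249 by edgeR). Tef had a log2 fold change of −0.27 ± 0.11 SE. For Per1, Cry1, Cry2, Nr1d1, Nr1d2, Rora, Ciart, Bhlhe40, Bhlhe41 and Timeless, as well as for the kinase genes Csnk1d and Csnk1e, the groups overlapped, with log2 fold changes from −0.58 for Ciart to 0.32 for Nr1d1 and unadjusted p-values above 0.05. E replicate 3 was the E mouse nearest to the C mean for Arntl, Npas2, Nfil3, Per2, Per3, Hlf, Tef and Dbp. Without E replicate 3, and likewise without several other single mice, Clock lost its call.

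**Figure D2:**
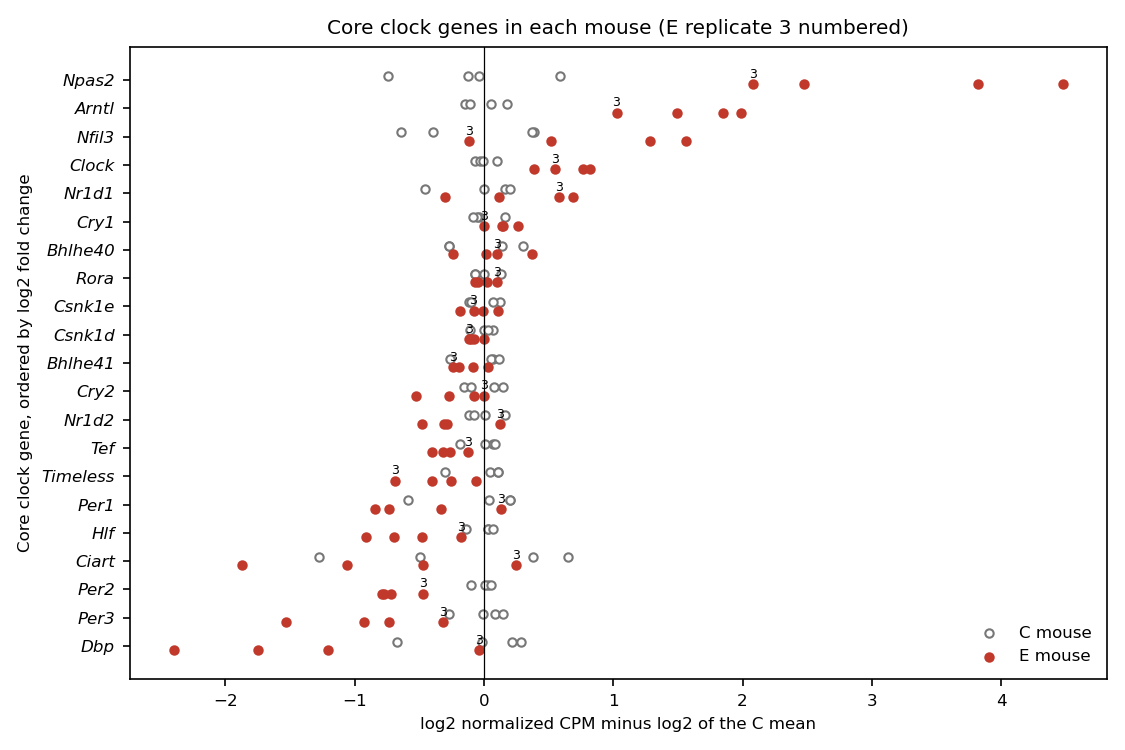
Core clock genes (21 of the 23 tested) in each mouse as log2 normalized CPM minus the log2 of the C mean (x axis), ordered by log2 fold change (y axis), with open points for C mice and filled points for E mice (n = 4 each) and E replicate 3 numbered. Npas2, Arntl and Clock lie to the right of the C mice in all 4 E mice and Per2, Per3 and Hlf to the left, while E replicate 3 lies nearest to the C mice in most of these.

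Most connective tissue genes had higher values in E, although few passed the adjusted test in the fit of the 16 libraries. Of 38 collagen chains tested, 1 was called (Col5a3) and 0 were lower, 21 were higher and 0 lower at an unadjusted p under 0.05 (55.3%, against 8.51% higher among all genes), and 15 had all E values above all C values (39.5%, against 5.06%). The median log2 fold change was 0.51, compared with 0.0033 over all genes. Among chains of the fibrillar collagens the log2 fold change was 0.87 ± 0.25 SE for Col1a1, 0.71 ± 0.21 for Col1a2 and 0.65 ± 0.21 for Col3a1. Col1a1, which encodes the α1 chain of collagen I, was at 87.5, 141, 97.7 and 99.0 CPM in C and 160, 219, 213 and 184 CPM in E, and its adjusted p was 0.159 by edgeR. The 4 E mice were above the 4 C mice, and C replicate 2 was the highest of the C mice. The log2 fold change was 0.58 ± 0.18 SE for Col4a1, a basement membrane chain, and 0.42 ± 0.10 for Col6a1 and 0.84 ± 0.18 for Col6a6, chains of the beaded filaments of collagen VI. Col17a1, Col19a1, Col23a1 and Col26a1 had values below 0, each with an unadjusted p above 0.05. In the fit of C and E alone, 10 of 37 collagen chains were called higher and 0 lower (1.08% and 0.211% of all genes). DESeq2 on the 16 libraries called 8 higher (1.46% of all genes).

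Of 12 SLRPs tested, Fmod and Chad were called by edgeR on the 16 libraries. DESeq2 and the fit of C and E alone called 5 each (against 1.46% and 1.08% of all genes called higher). All 12 had a log2 fold change above 0. At an unadjusted p under 0.05, 11 were higher (91.7%, against 8.51% of all genes), and 8 did not overlap (66.7%, against 5.06%). The median was 0.51. Several SLRP genes sit in clusters, and Chad lies outside them. Kera (keratocan, of the Kera, Lum and Dcn cluster at chromosome 10, 97315275 to 97449554) was at 0.933, 2.01, 1.59 and 1.81 CPM in C and 5.02, 9.06, 5.32 and 5.07 CPM in E. Its E values were all above its C values, with an adjusted p of 0.0515 by edgeR. Its neighbours had smaller differences, with a log2 fold change of 0.44 ± 0.14 SE for Dcn (decorin) and 0.30 ± 0.14 for Lum (lumican), compared with 1.94 ± 0.37 for Kera. In the Ogn, Omd, Aspn and Ecm2 cluster at chromosome 13, 49658236 to 49780412, the log2 fold changes were 0.41, 0.76, 0.65 and 0.38. Prelp, next to Fmod on chromosome 1, had a value of 0.45.

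**Figure D3:**
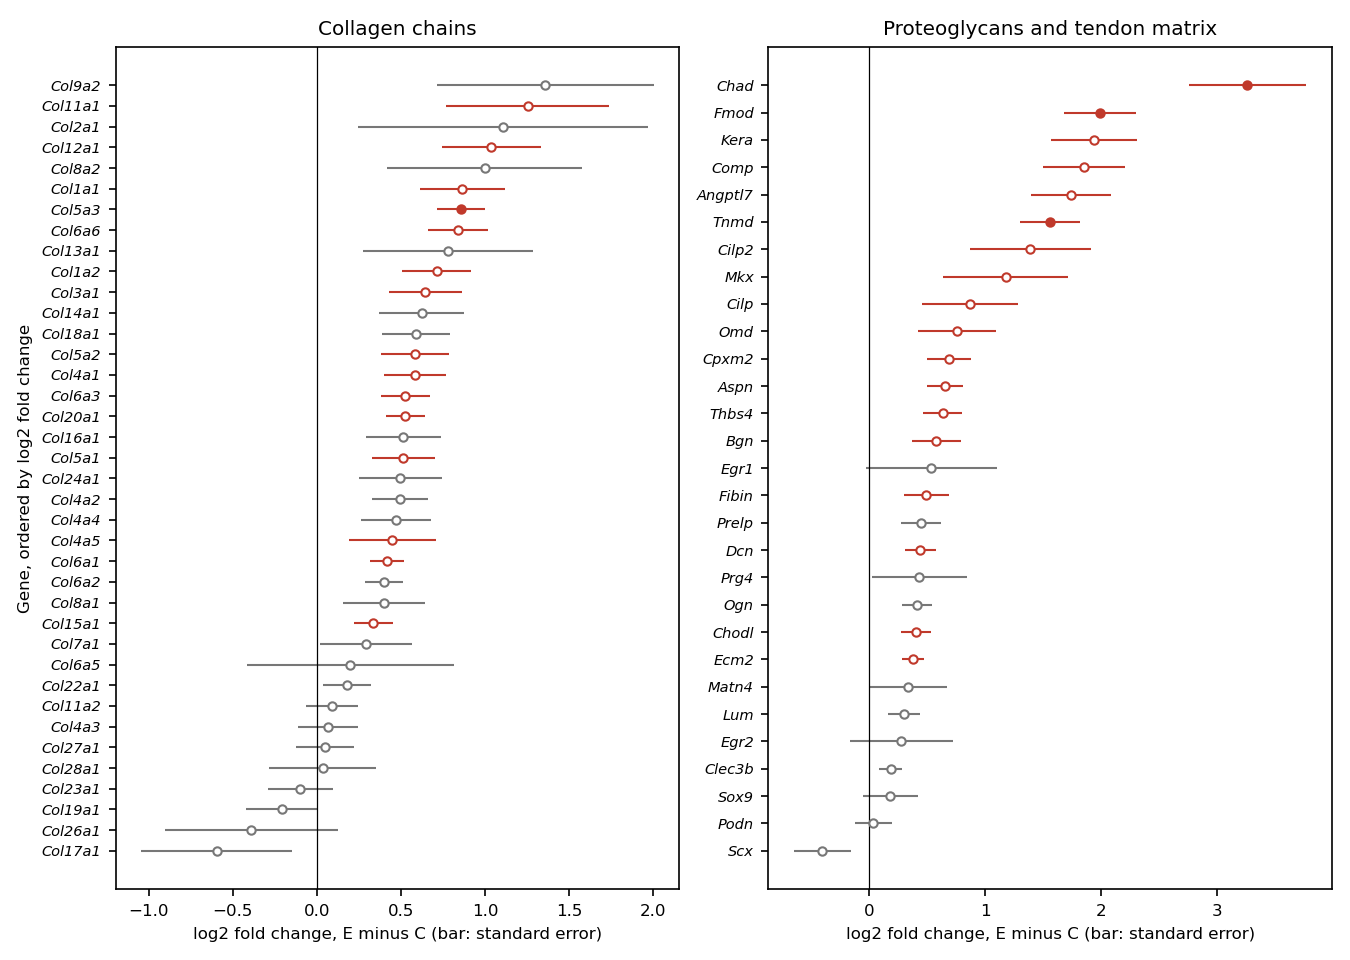
Log2 fold change of E minus C with its standard error for the tested collagen chains (left) and for SLRPs and tendon matrix genes (right), ordered by size, with filled points for an adjusted p under 0.05 and red for genes in which all 4 E values lie above all 4 C values. Most points lie to the right of 0, and Chad, Fmod, Kera and Comp lie farthest right, whereas Scx, the tendon transcription factor, lies at −0.41.

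Of 17 tendon and cartilage-like matrix genes tested, Tnmd was called by edgeR on the 16 libraries, 5 by DESeq2 and 6 by the fit of C and E alone. Among all genes, DESeq2 called 1.46% higher and the fit of C and E alone 1.08%. At an unadjusted p under 0.05, 9 of the 17 were higher and 0 lower (52.9%, against 8.51% of all genes higher). Of the 17, 10 did not overlap (58.8%, against 5.06%) and the median was 0.54. Of 11 tendon cell markers, which share members with the other lists, 3 were called by edgeR on the 16 libraries (Fmod, Chad and Tnmd), 7 by DESeq2 and 7 by the fit of C and E alone, 10 did not overlap (90.9%, against 5.06%) and the median was 1.39. Their summed level was 95.1, 93.0, 81.4 and 97.1 CPM in the C mice and 163, 271, 173 and 181 CPM in the E mice. E replicate 2 stood highest. Comp (cartilage oligomeric matrix protein) was at 0.671 to 1.57 CPM in C and 1.94 to 7.04 CPM in E (adjusted p = 0.0515 by edgeR), Angptl7 at 3.87 to 6.75 and 11.5 to 35.8 CPM (adjusted p = 0.0570 by edgeR), and Thbs4 (thrombospondin 4) at 50.6 to 71.4 and 74.9 to 132 CPM (adjusted p = 0.146 by edgeR). Scx (scleraxis), the defining tendon transcription factor, was the one member below 0, at 3.03 ± 0.64 CPM in C and 2.29 ± 0.34 in E, and Mkx (mohawk) was under 1 CPM in each of the 8 libraries. In bulk muscle, more cells of a type and more RNA per cell cannot be told apart, and how much tendon was taken with each muscle is not given in the sources used here and was not tested. Without E replicates 2 and 3 the median of the list was 1.15.

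Genes of elastic fibers, basement membranes and matricellular proteins (51 tested) had 0 called by edgeR on the 16 libraries. At an unadjusted p under 0.05, 25 were higher and 0 lower (49.0%, against 8.51% of all genes higher). DESeq2 called 9 higher and the fit of C and E alone 11 (against 1.46% and 1.08% of all genes). Fbn1, which encodes the microfibril protein fibrillin 1, was at 29.6, 43.6, 37.4 and 41.0 CPM in C and 53.6, 67.0, 114 and 85.4 CPM in E (log2 1.08 ± 0.24 SE, adjusted p = 0.0904 by edgeR). Nid1 (nidogen 1, a linker of the basement membrane) was at 113 to 135 and 157 to 213 CPM (adjusted p = 0.101 by edgeR). Among 47 matrix enzymes and inhibitors, Serpinf1 was called by edgeR on the 16 libraries, 6 were called by DESeq2 and 5 by the fit of C and E alone. At an unadjusted p under 0.05, 17 were higher and 0 lower (36.2%, against 8.51%), and the median was 0.31. Mmp14, a membrane-bound matrix metalloproteinase, was at 13.8 to 15.8 CPM in C and 22.9 to 27.3 CPM in E (adjusted p = 0.0731 by edgeR on the 16 libraries). Loxl2, a collagen cross-linking enzyme, had a log2 fold change of 0.73 ± 0.17 SE. Both genes were called higher by DESeq2 and by the fit of C and E alone.

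Of 29 fibroblast markers tested, 27 had a log2 fold change above 0, 14 had an unadjusted p under 0.05 and were higher (48.3%, against 8.51% of all genes), and the summed level ranged from 1418 to 1932 CPM in C and from 2008 to 2483 CPM in E. None was called by edgeR on the 16 libraries, while DESeq2 called 6 and the fit of C and E alone 5. Among all genes, these last 2 fits called 1.46% and 1.08% higher. Pdgfra, the defining receptor of these cells, was at 22.9 to 34.2 and 35.4 to 54.7 CPM. Of 14 smooth muscle and pericyte markers, 0 were called by edgeR on the 16 libraries, 4 by DESeq2 and 6 by the fit of C and E alone. In 9 the E values lay above the C values without overlap (64.3%, against 5.06% of all genes), with a median of 0.32, and Acta2 (smooth muscle actin) was at 163 to 192 and 225 to 256 CPM. Their summed level overlapped between groups, at 4001 to 4318 CPM in C and 4150 to 4370 CPM in E. The part of cell numbers in the matrix genes was not tested.

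Adipocyte markers rested on 2 mice. Their median was 1.41 and 9 of 18 had an unadjusted p under 0.05 (50%, all higher, against 8.51% of all genes). However, only 1 of the 18, Fasn, did not overlap (5.56%, against 5.06% of all genes). Adipoq (adiponectin) was at 1.49, 8.97, 9.36 and 4.15 CPM in C and 9.01, 32.3, 18.8 and 5.24 CPM in E, and Ucp1, the brown-fat uncoupling protein, was at 4.12 CPM in E replicate 2 and at most 0.107 CPM in the other 7 libraries. Without E replicates 2 and 3 the adipocyte median was 0.07, whereas it was 0.35 for collagen chains and 0.40 for SLRPs. In that fit no gene was called by edgeR, 1036 had an unadjusted p under 0.05, and the 13 genes were all higher in E with an unadjusted p of at most 0.00169.

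For lymphocyte and lymph node markers the median was −0.45, which was 0.75 without C replicate 3 and −1.27 without E replicate 1. Without both libraries, edgeR called 0 genes, 2314 had an unadjusted p under 0.05, and the 13 genes were higher in E with an unadjusted p of at most 0.00026. Summed levels overlapped between C and E for macrophage (90.1 to 176 and 102 to 189 CPM), neutrophil (2.31 to 17.2 and 2.86 to 6.91 CPM), erythroid (344 to 442 and 342 to 438 CPM), Schwann cell (539 to 1174 and 449 to 1046 CPM) and skin markers (11.4 to 14 and 12.8 to 14.8 CPM). None of these markers was called by edgeR, DESeq2 or the fit of C and E alone.

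**Figure D4:**
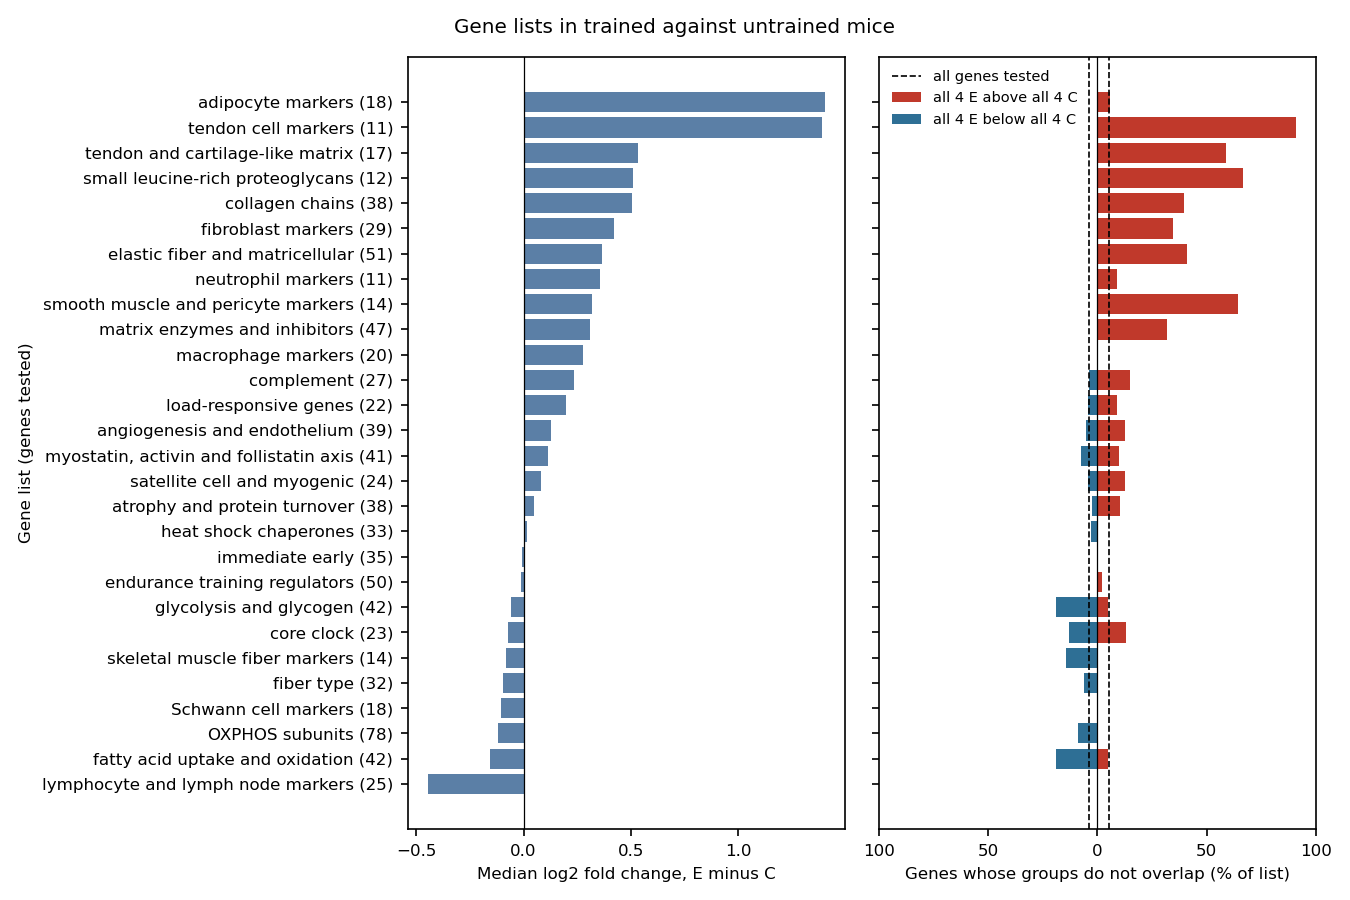
Median log2 fold change of E minus C for each gene list with at least 10 tested genes (left, number tested in brackets) and the percentage of each list in which all 4 E values lie above (red) or below (blue) all 4 C values (right), with dashed lines at 5.06% and 4.02% for all genes tested. Tendon, SLRP, collagen, elastic fiber and smooth muscle lists reach 39.5% to 90.9% above, whereas adipocyte markers have the highest median at 5.56%.

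Fst belongs to the myostatin and activin axis, which limits muscle mass through activin receptors. Of 41 genes tested, Fst was the 1 called by edgeR on the 16 libraries. At an unadjusted p under 0.05, 9 were higher and 3 lower (22% and 7.32%, against 8.51% and 5.67% of all genes). The median of the list was 0.11, which was 0.034 without C replicate 3 and E replicate 1. Mstn (myostatin), the ligand that follistatin neutralizes, was at 115 ± 24.9 CPM in C and 118 ± 8.54 in E, with a log2 difference of 0.04 and a 95% confidence interval of −0.29 to 0.38. Its receptor Acvr2b had a difference of 0.14 (interval −0.24 to 0.52). Inhba, which encodes the activin A subunit, was at 1.63 ± 0.64 and 2.72 ± 0.61 CPM (adjusted p = 0.288 by edgeR), and the inhibitor gene Wfikkn2 was lower without overlap (log2 −0.42 ± 0.13 SE, adjusted p = 0.188 by edgeR). Gdf10, another ligand of the family, was at 1.27 to 2.73 CPM in C and 4.41 to 7.47 CPM in E, and was called higher in the fit of C and E alone and by DESeq2 (adjusted p = 0.101 by edgeR on the 16 libraries).

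Among 27 complement genes, C7 was called and 6 were higher and 1 lower at an unadjusted p under 0.05 (22.2% and 3.7%, against 8.51% and 5.67% of all genes). The regulator gene Serping1 (C1 inhibitor) and the protease gene C1s1 were higher without overlap, with log2 fold changes of 0.53 ± 0.15 SE and 0.43 ± 0.11, and adjusted p-values of 0.148 and 0.140 by edgeR, and each was called by DESeq2 and by the fit of C and E alone. C8g, of the same terminal pathway as C7, was the lower one (log2 −0.66 ± 0.29 SE). C1qa, a marker also of macrophages, had a difference of −0.08 (95% confidence interval −0.57 to 0.41).

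Among genes of energy metabolism, Ppargc1a lay on the higher side and most OXPHOS and fatty acid oxidation genes on the lower side. Ppargc1a was at 32.5, 28.8, 34.0 and 27.6 CPM in C and 36.1, 44.2, 38.8 and 39.9 CPM in E, without overlap and 1.29-fold higher, with an adjusted p of 0.153 by edgeR. It was the 1 gene without overlap among 50 endurance training regulators (2%, below the 5.06% of all genes). Of these regulators, edgeR, DESeq2 and the fit of C and E alone called 0. At an unadjusted p under 0.05, 2 were higher and 1 lower (4.0% and 2.0%, below the 8.51% and 5.67% of all genes). Vegfa, the vascular growth factor, had a log2 difference of 0.21 (95% confidence interval −0.05 to 0.47) and Tfam, the mitochondrial transcription factor, of −0.11 (−0.26 to 0.03). Of 78 OXPHOS subunits, 77 had a log2 fold change below 0, with a median of −0.12, 16 had an unadjusted p under 0.05 and were lower (20.5%, against 5.67% of all genes), and 0 were called by edgeR on the 16 libraries or by the fit of C and E alone. Sdhc, a subunit of complex II, was at 337 to 350 CPM in C and 283 to 314 CPM in E, and DESeq2 called it lower.

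Of 42 genes of fatty acid uptake and oxidation, 13 were lower at an unadjusted p under 0.05 (31.0%, against 5.67% of all genes) and 1 was higher, 8 lay below without overlap (19.0%, against 4.02%) and 2 above, and the median was −0.16, which was −0.09 without E replicate 4. Acaa2 was at 190, 210, 205 and 226 CPM in C and 148, 176, 166 and 155 CPM in E. Slc25a20, the mitochondrial acylcarnitine carrier, was at 92.7 to 108 and 70.7 to 90.5 CPM (adjusted p = 0.0867 by edgeR), and the trifunctional protein genes Hadha and Hadhb had log2 fold changes of −0.18 ± 0.05 SE and −0.21 ± 0.06. No gene of the list was called by edgeR on the 16 libraries with TMM factors, whereas Acaa2 was called lower with DESeq2 size factors and with a robust fit. DESeq2 called 5 lower and the fit of C and E alone 3 (against 0.383% and 0.211% of all genes). Of 42 glycolysis and glycogen genes, 3 were higher and 3 lower at an unadjusted p under 0.05 (7.14% each, near the 8.51% and 5.67% of all genes), with a median of −0.06. None was called by edgeR on the 16 libraries, while DESeq2 called 2 higher and 1 lower and the fit of C and E alone 2 higher and 2 lower. In 8 the E values lay below the C values without overlap (19.0%), among them Fbp2, the muscle fructose bisphosphatase (69.4 to 102 and 42.7 to 65.5 CPM, adjusted p = 0.0932 by edgeR), while Pfkp, the platelet-type phosphofructokinase, was higher (6.32 to 8.22 and 9.43 to 13.8 CPM, adjusted p = 0.138 by edgeR).

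Of 32 fiber type genes, 0 were called by edgeR, DESeq2 or the fit of C and E alone and 2 were lower at an unadjusted p under 0.05 (6.25%, against 5.67%). The log2 difference between groups was 0.13 for Myh2 (type IIA, 95% confidence interval −0.15 to 0.40), 0.13 for Myh1 (type IIX, −0.20 to 0.45), −0.11 for Myh4 (−0.28 to 0.06) and −0.03 for Myh7 (−0.82 to 0.76). The summed level of 14 skeletal muscle fiber markers was 169650 to 184490 CPM in C and 157200 to 171670 CPM in E. Since these few genes take up a large share of each library, their level and the CPM of all other genes are not independent. Lists of immediate early, heat shock, protein turnover, endothelial, load-responsive and myogenic genes (22 to 39 tested) had 0 calls by edgeR on the 16 libraries. At an unadjusted p under 0.05, each had 1 to 5 genes higher and 1 or 2 lower. The shares ran from 3.03% (heat shock) to 13.6% (load-responsive) higher and from 2.86% to 5.26% lower, against 8.51% and 5.67% of all genes. DESeq2 or the fit of C and E alone called at most 2 of any list in either direction. In the protein turnover list the ubiquitin ligase gene Fbxo32 (atrogin 1) was at 362, 233, 413 and 417 CPM in C and 833, 457, 482 and 735 CPM in E (adjusted p = 0.338 by edgeR), without overlap.

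The same training was measured in other mice by comparing the TE group with the T group, which shares no library with E and C. All 13 genes had a log2 fold change above 0 in TE compared with T, whereas 51.6% of all genes had the same sign in both comparisons. The changes were smaller, with a median of 0.15 compared with 1.01. None of the 13 was called in TE compared with T by edgeR or DESeq2, no other gene was called by edgeR with TMM factors and the filter (0%, with 867 genes or 5.88% at an unadjusted p under 0.05) and 7 genes were called by DESeq2. Without the filter edgeR called 3 genes, without C replicate 2 it called 2 and without TE replicate 4 it called 1, none of them among the 13. Mean C7 was 6.05 CPM in T and 9.74 CPM in TE (log2 0.68 ± 0.21 SE, adjusted p = 0.693 by edgeR). C7 and Prkcd (log2 0.38 ± 0.17 SE) were the 2 of the 13 with an unadjusted p under 0.05. Fmod was at 22.5 CPM in T and 22.6 in TE, a log2 difference of 0.0048 that was −0.15 without TE replicate 4, the library with the most lymph node marker counts. The difference between both training effects was not called for any gene by edgeR (0%, with 1358 genes or 9.21% at an unadjusted p under 0.05). All 13 had an unadjusted p under 0.05 for this difference by edgeR (smallest 0.000269, for Fmod), each with the smaller change in TE. DESeq2 called the difference for 20 genes, of which Chad was the 1 among the 13 (log2 −2.85, adjusted p = 0.0286 by DESeq2). Because the 13 genes were chosen for a large change in E, the smaller change in TE and these p-values are a description.

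Across the 4 groups the 13 genes took different orders. The E mean was the highest in 12 of them, with Arntl as the exception (21.1 CPM in E and 21.9 in TE), and all 4 E mice lay above all 12 other mice in 8, namely C7, Chad, Col5a3, Fmod, Fst, Sash1, Serpinf1 and Tnmd. For Arntl and Clock it was the C group that stood apart, with all 4 C mice below all 12 other mice. Mean Arntl was 6.79 CPM in C and 16.5 in T, and mean Clock was 23.6 and 30.9. The untrained T mice thus overlapped with the E mice for both genes.

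**Figure D5:**
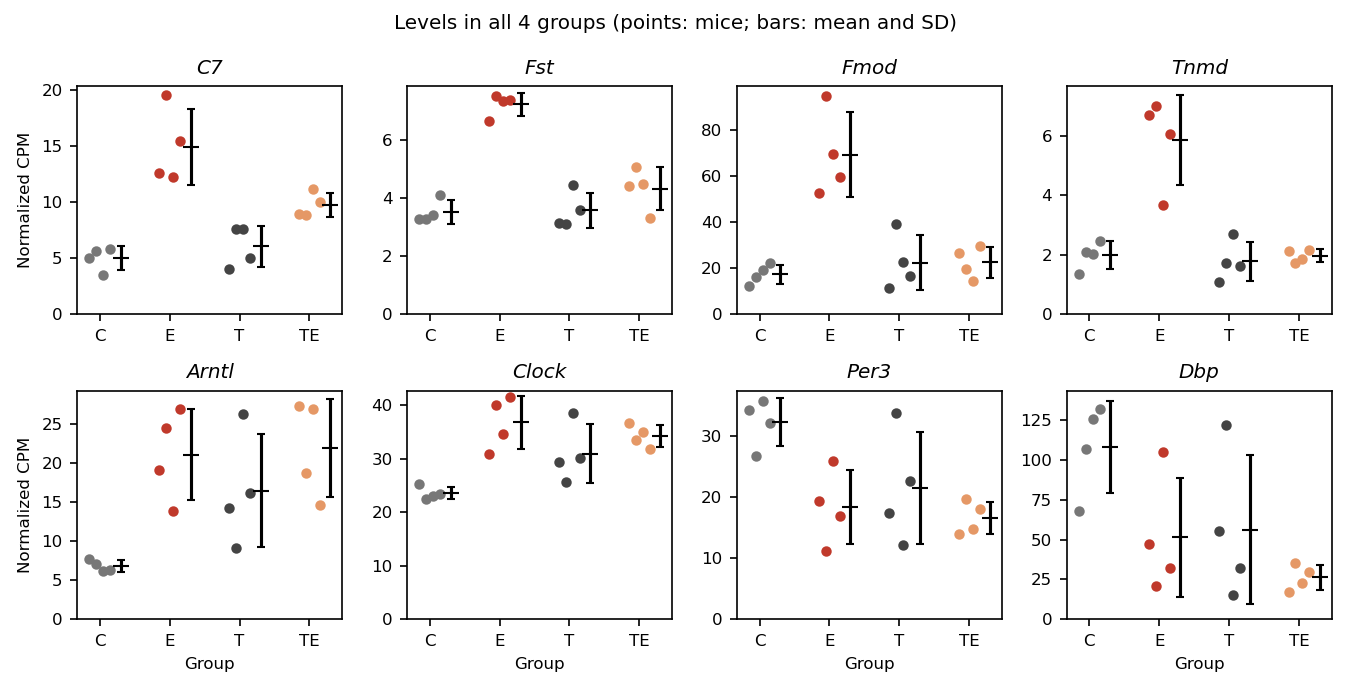
Normalized CPM of 8 genes in the 4 groups (C, E, T and TE; n = 4 mice each), with 1 point per mouse and the mean with SD at the side, on axes that start at 0. C7, Fst, Fmod and Tnmd have their highest mean in E, with overlapping C and T mice, whereas for Arntl and Clock the 4 C mice lie below all others and for Per3 and Dbp the C mean is the highest.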

How the data were processed

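PolyA RNA of the gastrocnemius muscle was sequenced in 4 groups of 4 mice, all with the same batch number in the labels. Per the processing notes, the authors trimmed reads with fastp 0.20.1, aligned them to GRCm39 with HISAT2 2.1.0 and counted them per gene with HTSeq 0.11.2. Neither strand setting nor annotation release is given in the sources used here, so that overlapping and antisense genes and close paralogs are uncertain. The authors deposited raw counts per gene and FPKM values, and the FPKM values were used only to set levels of different genes side by side. The tables held 0 columns of other samples.

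Counts were tested with the edgeR 4.0.16 quasi-likelihood test in R 4.3.3, with filterByExpr, TMM factors and 1 coefficient per group over the 16 libraries, which then share 1 estimate of the spread. Two-sided p-values received a Benjamini-Hochberg adjustment over 14749 genes. A gene was called at an adjusted p under 0.05, and a DEG also had a fold change above 2 or below 0.5. An unadjusted p is named as such. The SE of a log2 fold change is its size divided by the square root of the F statistic. Group means are given with the SD over 4 mice, and mice of a group differed by more than counting noise (chi-square per degree of freedom of 12.7 to 43.5). Since reads that are PCR duplicates were not marked by molecular identifiers, floors cover counting error only.

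Named genes were C7, Fst, Fmod and Arntl, the 10 with the smallest p in each direction, the called or 2 leading members of each of 30 gene lists (873 genes, of which 801 were tested) and the tested clock genes, apart from a few items that are not reported here. Pde3a, Sdc1, Sash1, the Per3 promoter and further list members were chosen after their values were seen. The lists share members. The samples and lists were chosen with earlier results of these data known. Gene coordinates were read from GENCODE (GRCm39), where all 84 named genes were found and further list genes were looked up. Promoters were read from the RefSeq table of GRCm38.p6, matched by sequence to GRCm39. Alternatives were DESeq2 1.42.0 and its size factors, no filter, the C and E libraries alone (edgeR on 14198 genes), a robust fit, a replicate block, limma-voom (limma 3.58.1) with sample weights, other thresholds and omitted mice. DESeq2 gave an adjusted p for 13592 genes. Figures were drawn with matplotlib.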

Additional observations from a re-analysis of the deposited data

Results flagged for a closer look

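In 8 of 167 groups of 4 mice examined for the named genes, 1 mouse lay far from the other 3 by Dixon's test, and chance alone gives about 1 in 20. In the C group, Prkcd was low in replicate 1 (10.1 CPM, against 12.4 to 12.9), and Lcn2, a neutrophil gene, was high in replicate 1 (14 CPM, against 0.216 to 0.83). Pfkp and Cry1 were high in C replicate 2 (8.22 CPM, against 6.32 to 6.56, and 20.5 CPM, against 17.2 to 17.8). Bpgm, a member of the erythroid marker list, was low in C replicate 2 (100 CPM, against 117 to 118). In the E group, the 3 outlying values were all high in replicate 2. They were Slc25a20 (90.5 CPM, against 70.7 to 73.3), Rgcc (48.8 CPM, against 36.6 to 38.5) and Retnlg, which was at 0.0546 CPM against 0.0253 to 0.027 and so below 3 counts in each C and E library. For none of the named genes did the training effect differ between tumor-free and tumor-bearing mice at an adjusted p under 0.05 by the edgeR interaction test.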

How the results depend on the processing

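All 13 called genes stayed higher in E in each of 17 refits of the data, and of the 221 values this gives, 116 kept and 105 lost an adjusted p under 0.05. The count of called genes (13) and of DEGs (7) was 21 with DESeq2 size factors (10 DEGs), 45 and 16 without the filter on low counts, 251 and 45 with the DESeq2 test, 183 and 31 with the C and E libraries alone, 141 and 21 with limma-voom, 19 and 9 with a robust fit, and 0 and 0 without C3 and E1 or, added after seeing the data, without E2 and E3. Leaving out 1 mouse of C or E gave 0 to 35 called genes and 0 to 17 DEGs. There were 13 DEGs at a fold change of 1.5 and 213 with the unadjusted p. Fits that omit mice also hold fewer mice, and the cause of these differences was not tested. Same-numbered mice of C and E did not pair, since their deviations correlated at −0.0784, 0.258, 0.0236 and 0.134 and 1 of 4 E libraries correlated best with its own number. The fit with the replicate block called 25 genes, of which 12 were among the 13, and Sash1 was not. The robust fit did not call Arntl or Fmod.

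Of 1170 values of named genes that were not called, 1073 stayed so in the same direction, 82 passed the threshold and 15 changed sign, as did 1 value of TE compared with T. Sign changes were found only for Rora (0.0043 in the fit of all mice, −0.0031 without the filter, −0.00458 without C3 and E1, −0.015 without E2 and E3), Csnk1e (0.049 without E2 and E3), Bhlhe40, Krt10 and Lcn2. Leaving out single mice gave log2 fold changes of −0.034 to 0.050 for Rora, −0.088 to 0.012 for Csnk1e, −0.039 to 0.19 for Bhlhe40, −0.31 to 0.014 for Krt10 and −2.80 to 0.65 for Lcn2. For Fmod, TE compared with T gave −0.15 without TE replicate 4. Depth limits Npas2 in C, where it had at most 5 counts per library.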
